A study of Caenorhabditis elegans with 26 samples.

Results

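Opposite phases of the 8 h larval molting cycle were compared in whole worms of the wild-type Caenorhabditis elegans strain N2. The 23-24 h phase held the 4 libraries titled 23, 24, 31 and 32 h, and the 27-28 h phase held the 4 titled 27, 28, 35 and 36 h. These 8 libraries were chosen by their titles, out of 16 of the same time course (course A) and 26 in all. Every library was whole-worm total RNA, with libraries made by the ScriptSeq v2 kit. All course A worms were N2 larvae that had hatched overnight and were fed the bacterium OP50 on NGM plates. Per the labels, harvest came 1 h after the hour in the title, owing to slow growth in this course, and title hours are used throughout. Course B is a second series of N2 larvae, grown on peptone-rich plates with the bacterium NA22 and harvested every 2 h.

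A nematode larva grows by building a new cuticle beneath the old one and then shedding the old one at the molt. The hypodermis and seam cells secrete first a transient precuticle matrix, then collagens, which enzymes hydroxylate, cleave and cross-link through tyrosines, while proteases loosen the old cuticle. The pharynx is lined by a cuticle of its own that is also replaced at each molt, and many of these genes are transcribed in a fixed order once per larval stage.

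Total counts were 16241561 to 29911888 per library, so that the 3 counts a library with 0 counts still allows correspond to 0.104 to 0.208 CPM, the unit being counts in every 1000000 of the library. These floors, like all counting intervals, cover counting error only. Levels are CPM on TMM-scaled totals, and differences are log2 of the 23-24 h phase over the 27-28 h phase, with the cycle (21-28 h or 29-36 h) as a block. A gene was called at an adjusted p below 0.05 in edgeR's quasi-likelihood test with Benjamini-Hochberg adjustment and an absolute log2 difference of at least 1. No hour was sampled more than once and nothing in the labels says that the libraries came from separate cultures, so the p-values measure only the spread between these libraries. The 4 libraries of a phase are pairs of neighbouring hours in each of 2 cycles. Markers of skin, intestine, body muscle, pharynx, neurons and germ line were detected in all 8 libraries, with unc-54, the body muscle myosin, at 3126 to 5105 CPM and elt-2, the intestinal GATA factor, at 30.8 to 44.8 CPM. In whole worms, fewer cells of a type and less RNA per cell cannot be told apart.

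Of 15015 genes tested, 905 were higher in the 23-24 h phase (6.03%) and 1079 were lower (7.19%). The higher genes together took 10.4%, 11.3%, 10.4% and 10.1% of all counts at 23, 24, 31 and 32 h, against 2.03%, 2.82%, 2.22% and 1.48% at 27, 28, 35 and 36 h. The lower genes took 0.959%, 0.736%, 1.41% and 1.59% in the 23-24 h phase and 4.78%, 3.39%, 6.15% and 7.94% in the 27-28 h phase. Among the higher genes, 747 had all 4 libraries of the 23-24 h phase above all 4 of the other, and among the lower genes 534 were separated that way. Of all 15015 genes tested, 2491 were without overlap in either direction, 1210 of them without a call. The calls used these same values, so the separation is partly set by the call. All 6 furrow collagens, 7 of 12 other body shape collagens, 11 of 17 molting genes, 5 of 9 precuticle genes and 20 of 40 hedgehog-related genes were higher in the 23-24 h phase. Among the lower genes were 26 of 105 numbered collagens, the tyrosine cross-linking peroxidase gene mlt-7 and the intestinal filament gene ifb-2. Leaving out the 36 h library lowered the counts to 556 higher and 488 lower genes. Without the 27 h library 627 genes were lower, and without the 32 h library 718. The mean title hour was 27.5 in the 23-24 h phase and 31.5, 4 h later, in the 27-28 h phase, so a gene that rises steadily with age comes out lower in the 23-24 h phase. With linear time in place of the cycle block, 807 genes were higher and 631 lower. Of the 905 higher genes 651 remained called, and of the 1079 lower genes 518.

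**Figure D1:**
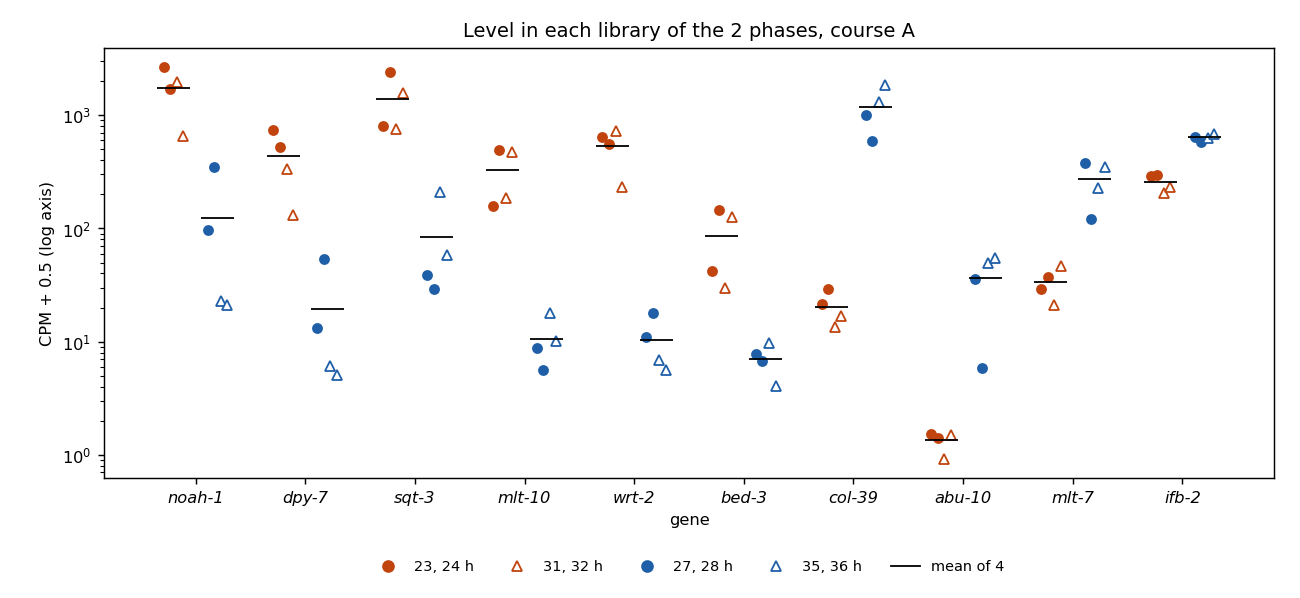
Levels of 10 genes in each of the 8 libraries, as CPM + 0.5 on a log axis; red points are the 23-24 h phase and blue points the 27-28 h phase, circles are the first cycle and triangles the second, and bars are means of 4. noah-1, dpy-7, sqt-3, mlt-10, wrt-2 and bed-3 stand higher in all 4 red libraries, while col-39, abu-10, mlt-7 and ifb-2 stand lower in all 4.

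Among 16 regulators of molting and developmental timing, 6 were higher in the 23-24 h phase and 0 were lower, with a median log2 difference of 1.23 against −0.03 over all genes tested. The transcription factor gene bed-3, required for molting, had 41.3, 145, 29.0 and 125 CPM at 23, 24, 31 and 32 h, against 7.25, 6.30, 9.21 and 3.55 CPM at 27, 28, 35 and 36 h. Its second hour was the higher one in both cycles, and the phases did not overlap (log2 3.68 ± 0.63 SE, adjusted p = 0.00916). lin-42, the Period-related gene of larval timing, had 83.5, 66.5, 49.0 and 57.8 CPM in the 23-24 h phase and 5.41, 9.96, 6.40 and 3.998 CPM in the 27-28 h phase (log2 3.32 ± 0.25, adjusted p = 0.000479). grh-1, the Grainyhead factor of epidermal barriers, differed by 3.29 ± 0.31 and the nuclear receptor gene nhr-41 by 2.04 ± 0.19.

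blmp-1, a Blimp-1 type factor that sets the amplitude of oscillating genes, had 97.7, 108, 84.0 and 77.4 CPM in the 23-24 h phase and 62.9, 73.9, 19.2 and 20.3 CPM in the 27-28 h phase. Its log2 difference of 1.31 ± 0.29 (adjusted p = 0.0227) lost the call without the 32, 35 or 36 h library, with an adjusted p of up to 0.0722. nhr-67, a Tailless-type receptor gene, differed by 1.16 ± 0.29 and lost its call without any of 6 libraries, at up to 0.0896. With linear time, bed-3, lin-42, grh-1 and nhr-41 were still called. nhr-23, the receptor gene that drives molting, had 48.8, 19.9, 36.4 and 30.2 CPM in the 23-24 h phase and 42.7, 63.8, 23.0 and 24.7 CPM in the 27-28 h phase, and the phases overlapped (log2 −0.07 ± 0.35, adjusted p = 0.899). The other members without a call were nhr-25 at 0.88, myrf-1 at 1.58, myrf-2 at 0.32, peb-1 at 2.18, nhr-91 at 1.35, ztf-6 at 0.74, elt-3 at −0.50, nhr-6 at −0.24 and nhr-85 at −1.27 (log2 differences). The highest libraries of nhr-23, peb-1, myrf-1 and nhr-91 in the 2 cycles were at 22 h and 30 h. Those hours belong to neither phase, so the contrast does not measure these peaks. nhr-85 and nhr-91 passed the test when the 24 h library was left out. With linear time nhr-85 was called lower (log2 −2.08, adjusted p = 0.0442). DESeq2, limma, total counts as scaling and all 16 libraries each also gave 1 lower regulator. In course B, nhr-85 was called lower (log2 −2.04, adjusted p = 0.0169), and peb-1 and nhr-91 were called higher.

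Of 9 genes of the precuticle matrix, which is laid down before the collagens, 5 were higher in the 23-24 h phase and 0 lower (median log2 2.94). noah-1, a zona pellucida domain protein of that matrix, had 2651, 1715, 1975 and 656 CPM at 23, 24, 31 and 32 h, against 96.1, 351, 22.2 and 20.4 CPM at 27, 28, 35 and 36 h (log2 4.61 ± 0.81, adjusted p = 0.0102). The lipocalin gene lpr-3 had 637, 269.8, 399 and 99.96 CPM in the 23-24 h phase and 21.3, 88.1, 3.81 and 5.35 CPM in the 27-28 h phase (log2 4.38 ± 0.90, adjusted p = 0.0171). In both genes the first hour of the 23-24 h phase was the higher one and 28 h was the highest library of the 27-28 h phase. lpr-3 lost its call without the 27 or 36 h library, at an adjusted p of up to 0.0656. let-653 and fbn-1, further precuticle components, overlapped between the phases and were not called: fbn-1 had 588, 119, 217 and 56.9 CPM in the 23-24 h phase and 213, 764, 8.55 and 6.02 CPM in the 27-28 h phase. The count of 5 fell to 2 without the 27 or 36 h library and to 3 without the 23, 32 or 35 h library.

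All 6 annular furrow collagens, which mark the circumferential furrows of the cuticle, were higher in the 23-24 h phase, with log2 differences of 4.21 to 5.50 and no overlap in any of them. dpy-8 had 1414, 820.5, 781 and 225 CPM in the 23-24 h phase and 16.05, 34.51, 11.1 and 10.6 CPM in the 27-28 h phase (log2 5.50 ± 0.50, adjusted p = 0.000928). dpy-7 had 738, 525, 338 and 129.9 CPM in the 23-24 h phase, against 12.6, 53.7, 5.54 and 4.58 CPM in the 27-28 h phase (log2 4.88 ± 0.62, adjusted p = 0.00327). dpy-3 differed by 5.27 ± 0.60, and dpy-2, dpy-9 and dpy-10 by 5.10, 4.21 and 4.90. All 6 were called without each library in turn.

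Of 12 other collagens named for body shape mutants, 7 were higher and 0 lower, with a median log2 difference of 3.999. lon-3, a collagen that limits body length, had 824, 2155, 884 and 1751 CPM in the 23-24 h phase, against 16.3, 19.6, 73.7 and 27.9 CPM in the 27-28 h phase (log2 5.53 ± 0.63, adjusted p = 0.00219). sqt-3 had 808, 2410.1, 756 and 1564 CPM in the 23-24 h phase and 38.4, 28.9, 209 and 58.0 CPM in the 27-28 h phase, and sqt-2 differed by 4.88 ± 0.81. Within the 23-24 h phase the collagen groups took opposite orders. The earlier hour was the higher one in both cycles for 6 of 6 furrow collagens and 5 of 5 called precuticle genes, and the later hour for 7 of 7 called body shape collagens. Over all 905 higher genes, 316 (34.9%) had the earlier hour higher in both cycles, 375 (41.4%) the later hour, and 214 (23.6%) were mixed.

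bli-1 and bli-2, the strut collagens of the adult cuticle, differed between the cycles as well. bli-1 had 1.44, 2.08, 1659 and 1826 CPM in the 23-24 h phase and 1.98, 21.9, 38.6 and 28.3 CPM in the 27-28 h phase, so that only 31 and 32 h stood high, and it was not called (log2 1.69 ± 3.06, adjusted p = 0.726). bli-2 had 18.1, 25.6, 699 and 1233 CPM in the 23-24 h phase, against 1.02, 7.13, 44.3 and 19.5 CPM in the 27-28 h phase (log2 3.72 ± 0.82, adjusted p = 0.0211), and it was also higher at 29-36 h.

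**Figure D2:**
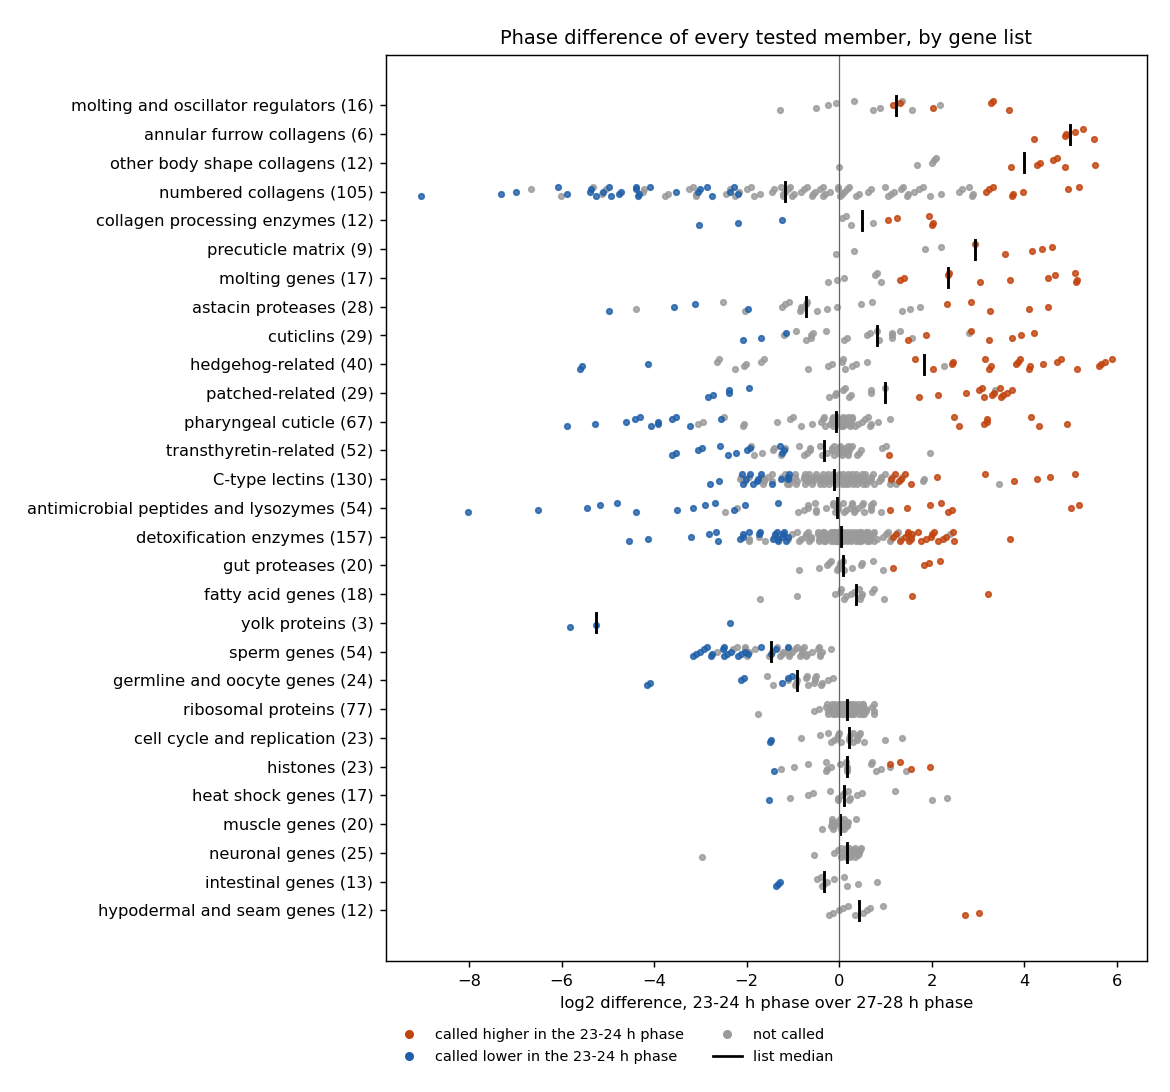
The log2 difference (23-24 h phase over 27-28 h phase) of every tested member of each gene list; each point is a gene, colour marks the call and the bar is the list's median. All 6 furrow collagens lie above 4, while the numbered collagens spread from −9.05 to 5.19 with a median of −1.17.

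The numbered collagens, which have no mutant name and include many near-identical genes, leaned the other way. Of 105 tested, 26 were lower in the 23-24 h phase and 8 higher, with a median log2 difference of −1.17, and 31 were also higher at 29-36 h than at 21-28 h. Reads shared between near-identical copies, in these and in the other multigene families below, can be split in ways the deposited counts do not show. col-39 had 21.1, 28.7, 12.9 and 16.2 CPM in the 23-24 h phase, against 1013, 596, 1321 and 1839 CPM in the 27-28 h phase (log2 −5.89 ± 0.48, adjusted p = 0.000619). col-146 had 0.631, 1.18, 0.700 and 0.672 CPM in the 23-24 h phase and 81.2, 43.1, 105 and 204 CPM in the 27-28 h phase (log2 −6.99 ± 0.52, adjusted p = 0.000479), and col-13 differed by −6.08 ± 0.62. In these collagens every library of the 27-28 h phase stood above every library of the other, in both cycles.

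col-137 and col-140, which had the lowest differences of the list, were near 0 through the first cycle. col-137 had 0, 0, 0 and 0.817 CPM in the 23-24 h phase and 0.532, 0.0488, 264 and 181 CPM in the 27-28 h phase, so that its contrast rests on 35 and 36 h. col-140 had 1994 and 2192 CPM at those hours and at most 22.7 CPM in the other 6 libraries. The higher numbered collagens included col-47, with 22.9, 18.3, 10.8 and 5.57 CPM in the 23-24 h phase and 0.387, 0.683, 0.312 and 0.135 CPM in the 27-28 h phase (log2 5.19 ± 0.38), and col-128 (4.95 ± 0.69). Without the 32 h library 15 numbered collagens were lower, and without the 32 or the 36 h library 5 were higher.

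Among 12 enzymes and cofactors that act on collagen, 5 were higher and 3 lower (median log2 0.50). phy-2, a prolyl 4-hydroxylase subunit, had 332, 312, 374 and 309 CPM in the 23-24 h phase and 71.1, 142, 74.2 and 48.7 CPM in the 27-28 h phase (log2 2.04 ± 0.30, adjusted p = 0.00525). dpy-11, a thioredoxin-like protein of the hypodermis, differed by 2.00 ± 0.27. The hydroxylase subunit gene dpy-18 was not called, at 0.73. The 3 lower genes act at the oxidative cross-linking of tyrosines. mlt-7, the peroxidase, had 28.8, 36.4, 20.6 and 46.1 CPM in the 23-24 h phase, against 380.2, 121, 229 and 352 CPM in the 27-28 h phase (log2 −3.03 ± 0.43, adjusted p = 0.00464). doxa-1, the dual oxidase maturation factor, differed by −2.18 ± 0.28 and tsp-15, a tetraspanin of the same complex, by −1.23 ± 0.34. bli-3, the dual oxidase itself, had 59.4, 61.6, 57.4 and 55.1 CPM in the 23-24 h phase and 49.98, 52.8, 68.3 and 53.3 CPM in the 27-28 h phase, with overlap (log2 0.06 ± 0.12, adjusted p = 0.755).

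Of 17 genes known for molting defects, 11 were higher and 0 lower, with a median log2 difference of 2.35 and 11 still higher without any single library. The list left out mlt-7, counted above with the collagen enzymes, which was lower (log2 −3.03). mlt-10 had 157, 492, 186 and 469 CPM in the 23-24 h phase, against 8.27, 5.08, 17.6 and 9.52 CPM in the 27-28 h phase (log2 5.09 ± 0.57, adjusted p = 0.00208). qua-1, a hedgehog-related protein required for molting, differed by 5.13 ± 0.39, mlt-9 by 5.13 ± 0.28 and the Kunitz-type protease inhibitor gene mlt-11 by 4.67 ± 0.60. The kinase gene nekl-2 passed the test at a log2 difference of 0.90 ± 0.14 (adjusted p = 0.00725), below the fold minimum.

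nas-37, the astacin metalloprotease that opens the old cuticle, had 604, 689, 576 and 369 CPM in the 23-24 h phase and 22.3, 33.8, 15.1 and 26.9 CPM in the 27-28 h phase (log2 4.51 ± 0.27, adjusted p = 0.000237). Over 28 astacins, 5 were higher and 4 lower (median log2 −0.71), with nas-15 at 4.11 ± 0.57 among the higher ones. The astacin gene nas-1 differed by −4.98 ± 0.93 and lost its call without the 27 h library (0.0539). nas-30 had 2.16, 7.75, 0.700 and 4.27 CPM in the 23-24 h phase and 34.6, 6.88, 113 and 56.9 CPM in the 27-28 h phase. Its phases overlapped and its call (log2 −3.58 ± 1.04, adjusted p = 0.0483) was lost without any of 6 libraries, at up to 0.146. Without the 27, 32 or 36 h library 3 astacins were higher, and without 27 or 36 h 2 were lower. Among 29 cuticlins, zona pellucida domain proteins of the cuticle, 7 were higher and 3 lower (median log2 0.83), led by cut-6 at 4.21 ± 0.39 and cutl-28 at 3.94 ± 0.34, with cutl-23 at −2.07 ± 0.21 and cutl-11 at −1.68 at the other end. The call of cutl-11 was lost without the 32 or 36 h library, at up to 0.0598. Between 3 and 4 cuticlins were higher without the 23, 27, 32 or 36 h library.

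**Figure D3:**
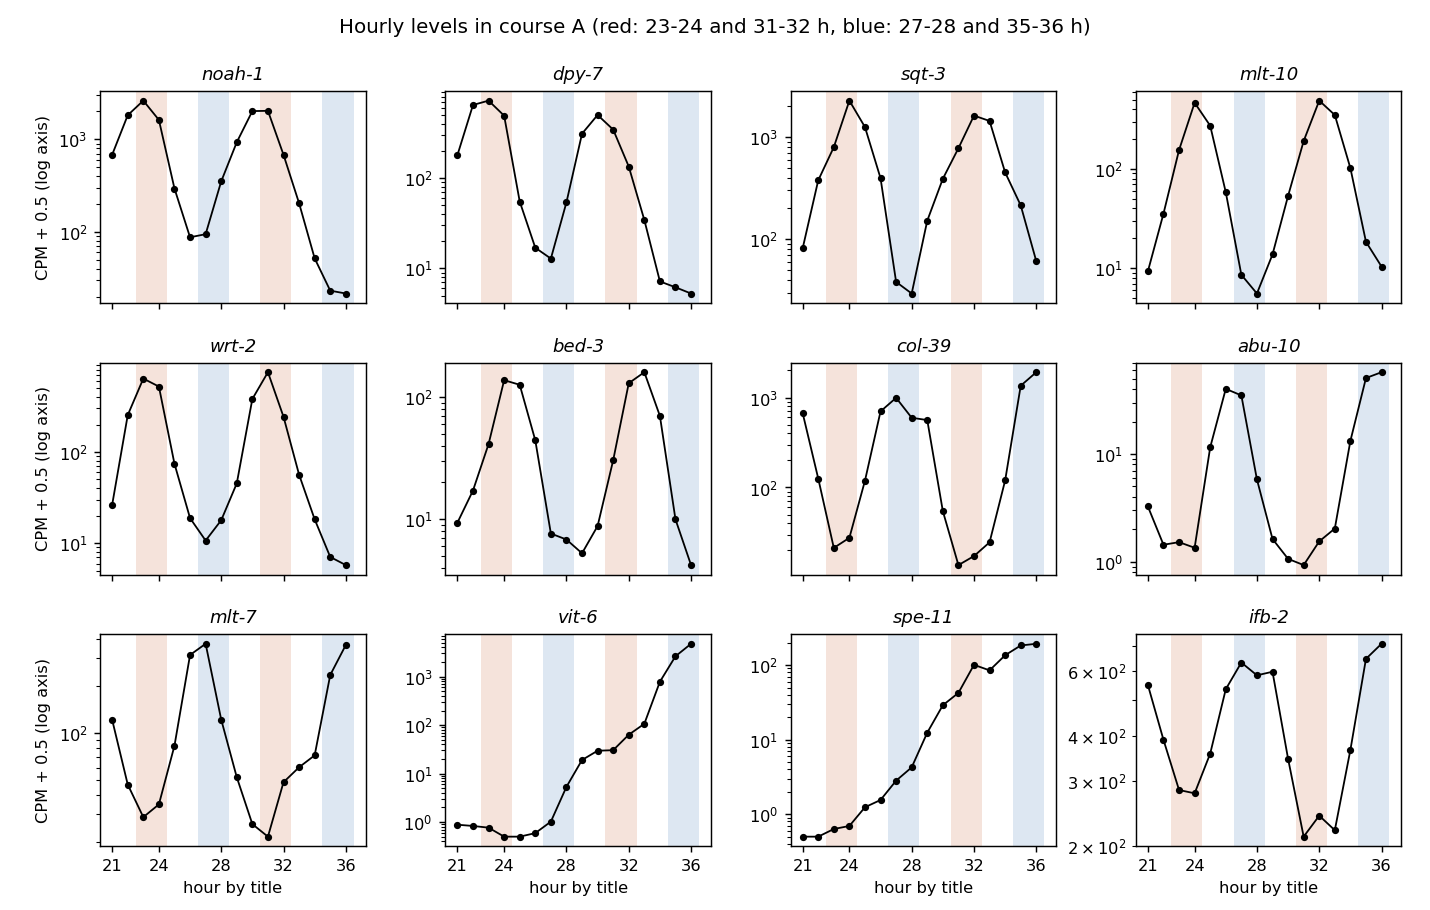
Levels of 12 genes at every title hour from 21 to 36 h of course A, as CPM + 0.5 on a log axis, 1 library per hour; red bands mark the 23-24 h phase and blue bands the 27-28 h phase. noah-1, dpy-7, sqt-3, mlt-10, wrt-2 and bed-3 peak in or beside the red bands of both cycles, col-39 and mlt-7 in or beside the blue ones, and vit-6 and spe-11 climb through the second cycle.

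C. elegans has no canonical hedgehog but a large set of secreted hedgehog-related proteins, of which many are made in the hypodermis. Of 40 tested, 20 were higher in the 23-24 h phase and 3 lower, with a median log2 difference of 1.83 and 16 to 20 higher with each library left out. wrt-2, of the warthog group, had 646, 552, 728 and 234 CPM in the 23-24 h phase and 10.4, 17.4, 6.44 and 5.08 CPM in the 27-28 h phase (log2 5.90 ± 0.48, adjusted p = 0.000607). wrt-1 differed by 5.74 ± 0.26 (adjusted p = 9.09e-05), and grl-7 and grl-15 of the ground-like group by 5.65 and 5.61. grl-21 and grl-4 were opposite: grl-4 had 2.97, 2.49, 1.35 and 1.59 CPM in the 23-24 h phase, against 164, 44.6, 74.4 and 113 CPM in the 27-28 h phase (log2 −5.61 ± 0.49, adjusted p = 0.000778).

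Patched-related membrane proteins, which carry a sterol-sensing domain and several of which are required for molting, were split 13 higher and 5 lower out of 29 (median log2 0.99). ptr-18 had 234, 576, 192 and 404 CPM in the 23-24 h phase and 23.9, 10.6, 57.9 and 20.0 CPM in the 27-28 h phase (log2 3.74 ± 0.63), and ptr-4 differed by 3.63 ± 0.55. che-14, the Dispatched-related protein of apical secretion, had 48.0, 56.8, 61.2 and 47.6 CPM in the 23-24 h phase, against 7.01, 10.3, 6.23 and 3.73 CPM in the 27-28 h phase (log2 3.02 ± 0.28, adjusted p = 0.000981). ptr-8 at −2.84 ± 0.58 and ptr-3 at −2.72 were the lowest. ptr-8 lost its call without the 27 or 36 h library (up to 0.0571) and ptr-3 without any of 5 (up to 0.103). Without the 27 h library 8 of the family were higher, and 2 or 3 were lower without the 23, 27, 31, 32 or 36 h library.

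The pharyngeal cuticle list held the glutamine- and asparagine-rich abu and pqn genes, the idpc genes for disordered proteins and the phat genes for gland mucins. Members were taken by name, 48 of them pqn genes, and whether each acts in the pharyngeal cuticle was not tested. The idpb and idpp genes were not on the list. Of 16 idpp genes 2 were higher and 4 lower, and of 5 idpb genes 0 were called. Of 67, 8 were higher and 12 lower, with a median log2 difference of −0.06. pqn-32 had 181, 614, 232 and 762 CPM in the 23-24 h phase, against 12.9, 10.4, 22.1 and 14.5 CPM in the 27-28 h phase (log2 4.92 ± 0.55, adjusted p = 0.00209), and abu-13 differed by 4.32 ± 0.54. All 8 higher members were higher in the later hour of the phase in both cycles. abu-10 had 1.04, 0.900, 0.420 and 1.01 CPM in the 23-24 h phase and 35.2, 5.32, 49.1 and 54.8 CPM in the 27-28 h phase (log2 −5.28 ± 0.75, adjusted p = 0.00482). pqn-71 had 0.225, 0.0692, 0 and 0 CPM in the 23-24 h phase, against 6.86, 1.37, 4.67 and 5.75 CPM in the 27-28 h phase. It passed the filter only through the 27-28 h phase, so it could be called only lower. The higher count was 3 to 5 without the 24, 27, 28, 32 or 36 h library, and the lower count 5 to 7 without the 27, 32 or 36 h library.

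Across all genes, the largest differences with a mean level of at least 10 CPM included genes outside the cuticle lists. osr-1, named for the osmotic stress resistance of its mutants, had 220.4, 222, 322 and 143 CPM in the 23-24 h phase and 3.14, 3.86, 4.85 and 2.61 CPM in the 27-28 h phase (log2 5.97 ± 0.35, adjusted p = 0.000203). mltn-1, of the mlt-10-related family, differed by 5.67 ± 0.62. dos-2 had 6.35, 12.9, 26.0 and 40.4 CPM in the 23-24 h phase and 0.290, 0, 0.796 and 0.539 CPM in the 27-28 h phase. At the other end were short nematode-specific peptide genes: nspb-6 had 0.766, 0.277, 0.420 and 0.0961 CPM in the 23-24 h phase, against 56.8, 15.7, 15.96 and 36.4 CPM in the 27-28 h phase (log2 −6.30 ± 0.68). For nspb-8, with 0.135, 0.208, 0.0933 and 0 CPM in the 23-24 h phase, every library of that phase was at or under the 3-count floor, against 32.6, 6.59, 20.04 and 34.3 CPM in the 27-28 h phase, and it passed the filter only through the 27-28 h phase.

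Genes of defence and digestion were found on both sides. Of 130 C-type lectins, 12 were higher and 15 lower (median log2 −0.11). These are shares of 9.23% and 11.5%, against 6.03% and 7.19% of all genes tested. clec-180 had 733, 765, 736 and 469 CPM in the 23-24 h phase and 16.9, 41.9, 14.3 and 11.8 CPM in the 27-28 h phase (log2 5.10 ± 0.38, adjusted p = 0.000479). Of 54 antimicrobial peptide and lysozyme genes, 8 were higher and 13 lower (median log2 −0.04), shares of 14.8% and 24.1%. The saposin-like gene spp-13 had 149, 187, 201 and 147 CPM in the 23-24 h phase and 6.33, 3.95, 5.92 and 4.76 CPM in the 27-28 h phase (log2 5.02 ± 0.22, adjusted p = 7.88e-05), and the caenacin gene cnc-3 differed by 5.18 ± 0.50. fipr-11, of the fungus-induced peptide-related family, had 0, 0, 0.0467 and 0 CPM in the 23-24 h phase, which is 1 count, against 7.88, 6.15, 2.84 and 3.41 CPM in the 27-28 h phase. It passed the filter only through the 27-28 h phase, so it could be called only lower. The counts of called lectins and peptide genes were small when single libraries were left out. Then 6 or 7 lectins were higher without the 23, 32 or 36 h library and 4 to 8 lower without 27, 31, 32, 35 or 36 h. Between 4 and 5 peptide genes were higher without any 1 library other than 35 h, and 5 were lower without 27 or 36 h.

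Among 157 detoxification enzymes 21 were higher and 22 lower (median log2 0.04). cyp-42A1, a cytochrome P450, differed by 3.69 ± 0.35, and cyp-32A1 had 1.04, 0.692, 2.05 and 2.07 CPM in the 23-24 h phase, against 34.4, 15.8, 36.5 and 44.7 CPM in the 27-28 h phase (log2 −4.54 ± 0.32, adjusted p = 0.000429). Without the 36 h library 12 were higher and 12 lower, and without 27 h 13 were lower. Of 52 transthyretin-related genes 12 were lower and 1 higher (median log2 −0.32), with ttr-32 at −3.60 ± 0.48 and ttr-54 at 1.07. The call of ttr-54 was lost without any of 7 libraries, at up to 0.107. Only 4 to 6 of them were lower without the 23, 27, 32 or 36 h library.

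Of 20 proteases listed for the gut 4 were higher and 0 lower. cpl-1, cathepsin L, had 729.5, 1407, 829 and 1655 CPM in the 23-24 h phase and 126, 182, 553 and 289.7 CPM in the 27-28 h phase (log2 2.18 ± 0.42, adjusted p = 0.0144), and lost its call without the 27, 32 or 36 h library, at up to 0.0537, where 1 protease was left. The cathepsin B gene cpr-1 differed by 1.83 ± 0.15. In fatty acid synthesis 2 of 18 were higher, the elongase elo-4 at 3.23 ± 0.30 and the synthase fasn-1 at 1.57 ± 0.30, and 1 without the 36 h library. Of 13 intestinal genes 3 were lower and 0 higher. ifb-2, an intermediate filament of the intestinal apical web, had 288, 295, 206 and 233 CPM in the 23-24 h phase, against 645, 584, 632 and 684 CPM in the 27-28 h phase (log2 −1.33 ± 0.13, adjusted p = 0.00131). ifc-2, its partner filament, had 231, 231, 192 and 210.1 CPM in the 23-24 h phase and 522, 516, 501 and 551 CPM in the 27-28 h phase (log2 −1.28 ± 0.10). The libraries of each phase lay close together in both filament genes. gem-4, the third, differed by −1.36 ± 0.28 and lost its call without the 36 h library (0.0514).

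Some genes of the germ line, sperm and yolk were lower in the 23-24 h phase, and most on these lists were higher at 29-36 h. Of 54 sperm genes 20 were lower and 0 higher, and 52 were higher at 29-36 h; of 24 germline and oocyte genes 7 were lower and 18 higher at 29-36 h; and the 3 tested yolk genes were lower. vit-6, a yolk protein gene made in the adult intestine, had 0.270, 0, 29.1 and 60.6 CPM in the 23-24 h phase and 0.532, 4.83, 2568 and 4579 CPM in the 27-28 h phase (log2 −5.81 ± 0.97, adjusted p = 0.0087). The sperm gene spe-11 had 0.135, 0.208, 40.8 and 96.8 CPM in the 23-24 h phase, against 2.37, 3.76, 179 and 185 CPM in the 27-28 h phase. nspd-10 differed by −3.15 ± 0.50 and perm-4, a gene of the eggshell permeability barrier, by −4.16 ± 0.91. perm-4 had 0, 0, 0.793 and 8.41 CPM in the 23-24 h phase and 0, 0.0488, 65.6 and 101 CPM in the 27-28 h phase. Its contrast therefore rests on the second cycle. With single libraries left out perm-4 was tested in only 4 fits and called in 3, losing the call without 28 h (0.0720). With linear time in place of the cycle block none of the 3 lists kept a call, and the signs of nspd-10, perm-4 and the lectin gene clec-147 turned positive, at 0.24, 1.22 and 0.68. Without the 36 h library 3 sperm genes were lower, without 31 or 35 h 5, and without 24, 27 or 32 h 11 to 13. Of the germline and oocyte genes 1 was lower without the 32 h library, 2 without 31 or 36 h, 4 without 35 h and 11 without 24 h. Phase and age cannot be told apart for such genes in these 8 libraries.

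Other lists had few or no calls. The 77 ribosomal protein genes had 0 calls in edgeR and limma and 1 lower in DESeq2, with a median log2 difference of 0.16 and 23 higher and 4 lower at an unadjusted p below 0.05. The 20 muscle genes had 0 calls in all 3 tools and 0 at an unadjusted p below 0.05 (median 0.03), and the 25 neuronal genes had 0 calls in edgeR and limma, 1 lower in DESeq2 and 5 higher at an unadjusted p below 0.05. Of 23 cell cycle genes 2 were lower (8.70%, against 7.19% of all genes tested). Among them was the B-type cyclin cyb-2.1 at −1.49 ± 0.32, whose call was lost without 31 or 32 h (0.0717). Of 23 histones 4 were higher and 1 lower: his-3 had 289, 498, 83.5 and 146 CPM in the 23-24 h phase and 142, 103.7, 34.1 and 13.7 CPM in the 27-28 h phase (log2 1.97 ± 0.36), while his-69 at −1.41 ± 0.37 lost its call without any of 6 libraries (0.104). Without the 24, 27, 28, 32 or 36 h library 2 histones were higher. None of the cell cycle and histone calls held with linear time. Of 17 heat shock genes 1 was lower (5.88%), the small heat shock gene hsp-43, at −1.52 ± 0.24. Of 12 hypodermal and seam genes 2 were higher, and 1 without any 1 library other than 35 h.

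**Figure D4:**
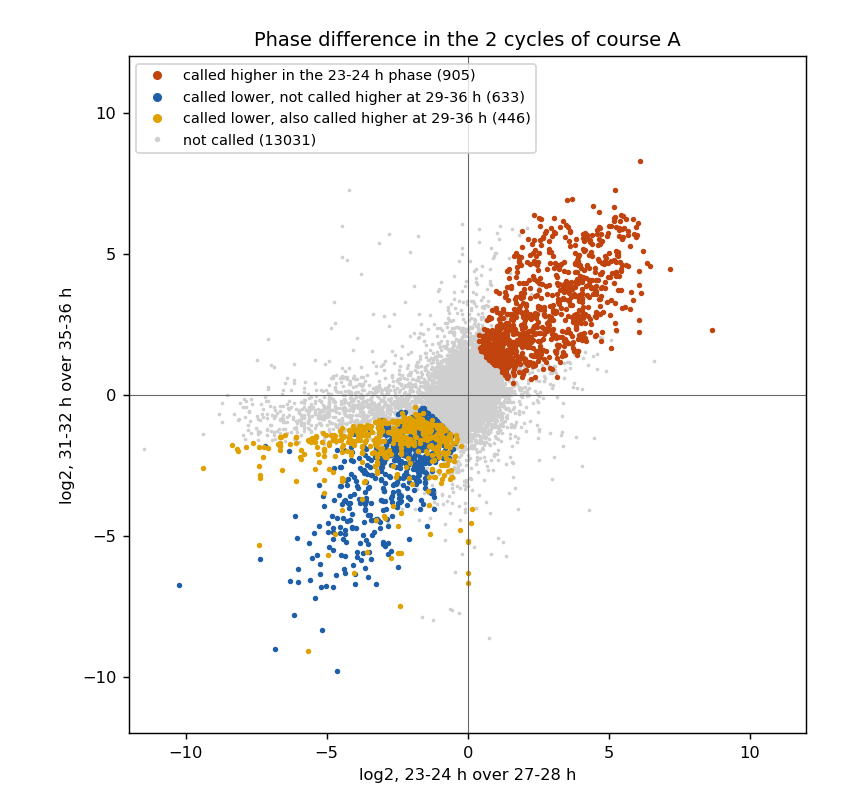
The log2 difference of each gene in the first cycle (23-24 h over 27-28 h) against the second (31-32 h over 35-36 h); colours mark 905 higher genes, 633 lower genes not higher at 29-36 h, 446 lower genes also higher at 29-36 h, and 13031 genes without a call. All 905 higher genes lie above 0 on both axes, which use the libraries they were called on.

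The cycles were then compared. All 905 higher genes had the same sign in both cycles and 745 differed by at least 1 log2 unit in each. Of the lower genes 1073 had the same sign and 866 differed by that much in each. Among all genes tested 63.5% had the same sign, and 1946 genes differed by that much in each with the same sign. The calls used the same libraries, which by itself favours equal signs, so these counts are no test of the cycles. Over all 15015 genes the rank correlation of the cycle differences was 0.489, a description across genes, which are not independent replicates. Phase and cycle differed in their interaction for 279 genes (1.86%), 214 with a positive and 65 with a negative term (29-36 h minus 21-28 h), and 3779 at an unadjusted p below 0.05. blmp-1 was among them, its phase difference being 2.03 in the second cycle and 0.59 in the first (interaction 1.45 ± 0.19, adjusted p = 0.0383). col-176 had a phase difference of 3.30 in the second cycle and −4.74 in the first, with 3.92, 1.66, 25.5 and 10.2 CPM in the 23-24 h phase and 38.1, 115, 2.53 and 1.03 CPM in the 27-28 h phase. None of the 279 calls held without the 23, 24, 31, 35 or 36 h library, while 13 genes were called without 28 h, 12 without 32 h and 286 without 27 h.

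Between the cycles 1968 genes were higher at 29-36 h (13.1%) and 572 lower (3.81%). Of the 1079 genes lower in the 23-24 h phase, 446 (41.3%) were also higher at 29-36 h, against 36 of the 905 higher genes (3.98%). The lower genes were divided by that call. Among the 633 not higher at 29-36 h, 527 had phases that did not overlap, and 507 remained called with linear time. Among the 446, 7 did not overlap and 11 remained called, and 21 were called the other way. With 27-28 h set between 23-24 h and 31-32 h, 0 of 316 testable genes of the 446 were called, against 292 of 556 of the 633. The division uses the same 8 libraries, and a rise between the cycles by itself makes phases overlap and takes up the difference once linear time or a bracket is fitted, so these counts describe the division and are no test of it. Leaving out the 36 h library lowered the count of genes lower at 29-36 h to 233, 27 h to 248, 35 h to 285 and 32 h to 296.

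**Figure D5:**
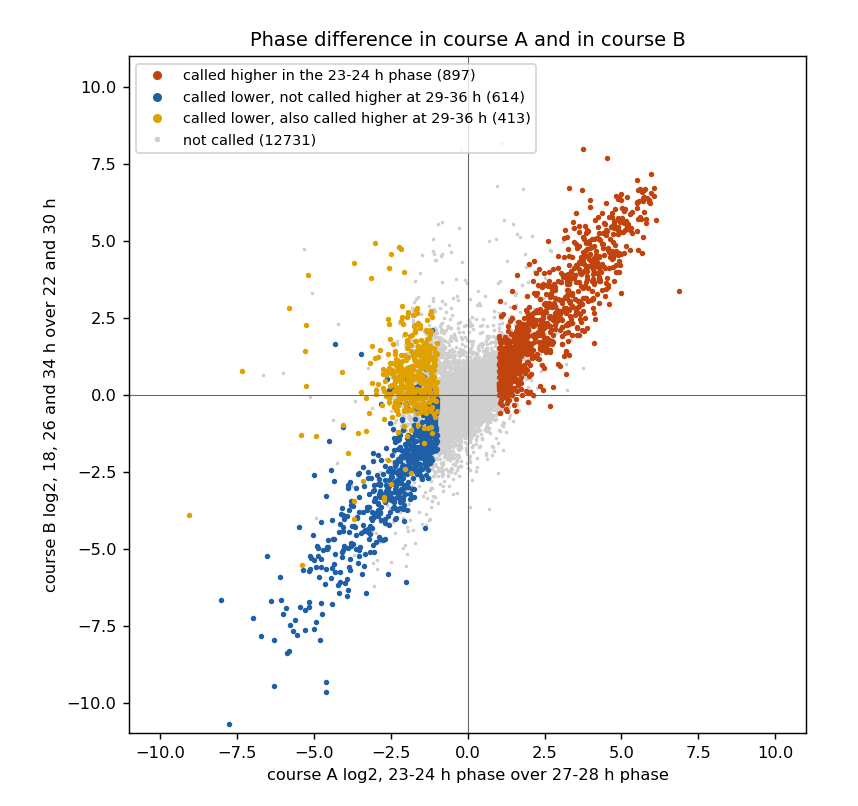
The log2 difference in course A (23-24 h phase over 27-28 h phase) against that in course B (18, 26 and 34 h over 22 and 30 h), with colours as in the plot of the cycles, for 897, 614, 413 and 12731 genes. The 897 higher and 614 lower genes lie mainly in the matching quadrants, while 102 of the 413 genes also higher at 29-36 h lie below 0 in course B.

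Course B shares no libraries with these 8 and was used to look at the same phases in another culture and food. The hours 18, 26 and 34 against 22 and 30 were chosen with the offset between the courses known from earlier results, and both groups have a mean hour of 26. Of 15003 genes tested in course B, 869 were higher (5.79%) and 1030 lower (6.87%). Among the genes higher in course A, 878 of 897 tested (97.9%) had the same sign in course B, 622 were called higher and 0 lower, while 63.6% of all genes tested in both had the same sign. Of the 614 lower genes not higher at 29-36 h, 595 (96.9%) had the same sign and 481 (78.3%) were called lower. Of the 413 lower genes that were also higher at 29-36 h, 102 (24.7%) had the same sign and 12 were called lower. The 6 furrow collagens and the 7 body shape collagens that were higher in course A were all called higher in course B, as were 10 of the 11 molting genes and 18 of the 20 hedgehog-related genes. Of the 8 members of the pharyngeal cuticle list higher in course A, 3 were called higher in course B. All 12 lower members were called lower there, where 20 of the list were lower. Of the 26 numbered collagens lower in course A 17 were lower in course B, where 36 of the list were. The hedgehog-related list had 3 lower members in course A, against 8 in course B. Of the C-type lectins 15 were lower in course A, against 5 in course B. No sperm, germline or yolk gene was called lower in course B. Leaving out the 22 h library of course B lowered its counts to 307 higher and 352 lower genes, and leaving out 30 h to 450 and 665. Without 34 h, 656 were lower.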

How the data were processed

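The 8 course A libraries were grouped by title hour, and the members and gene lists were chosen with earlier results of these data known. The deposited table holds raw counts per gene for 20182 genes, of which 18778 were joined to a name by WormBase identifier. The authors' second deposited table holds log2 values, which equal, within 5e-05, the log2 of 8 plus the count after scaling each library to its course's mean total. For the counts, no aligner, counting tool, strand use, genome build or annotation was given in the sources used here, so reads of overlapping genes cannot be told apart. No coordinates or sequences are printed. The reference annotation (WBcel235) served only for gene type and neighbours. Rows whose identifier is not a WormBase gene number (3 rows, 0.150% of counts) are among the 20182. They count in the library totals and were not removed before the fits.

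Genes were tested where 4 or more of the 8 libraries reached 10 counts, scaled to the median library, in edgeR 4.0.16 (R 4.3.3, TMM, robust quasi-likelihood F test, cycle as block, 5 residual degrees of freedom), with Benjamini-Hochberg adjustment over all genes tested. Standard errors are the log2 difference divided by the square root of F. The interaction was fitted with phase, cycle and their product. Course B was fitted on its 10 libraries with 4 phase levels and linear time. DESeq2 1.42.0, limma 3.58.1 on the authors' log2 values, other scalings, filters and blocks, and single libraries left out were alternatives. Figures were drawn with matplotlib 3.10.9.

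On simulated counts (14875 genes, 200 changed, 4 against 4 libraries), 68.7% of genes changed by 1.5 log2 units were called in the right direction, 82.1% at 2 and 95.5% at 4. The changed genes were drawn only from those with mean counts well above the test filter, so these shares do not cover genes near it. In the same run 10 unchanged genes were called.

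The text names all 16 regulators, the 2 highest and 2 lowest called genes of each cuticle list, the highest and lowest of every other list, the 8 highest and 8 lowest of all genes with a mean of at least 10 CPM, and the 3 highest and 3 lowest interaction genes under the same minimum. The genes dpy-2, dpy-7, dpy-9, dpy-10, dpy-18, sqt-3, bli-1, bli-2, bli-3, tsp-15, fbn-1, let-653, mlt-10, mlt-11, nekl-2, cpr-1, fasn-1, ifb-2, ifc-2, spp-13 and spe-11 were chosen after their values were seen, as were the families in the closing section.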

Additional observations from a re-analysis of the deposited data

Results flagged for a closer look

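The 178 groups of 4 libraries tested were those of the named genes, the total counts and the TMM factors. In 8 of them, all of named genes, 1 library stood apart from the other 3 by Dixon's criterion, where chance flags about 5% of groups. grl-15 had 176 CPM at 23 h, against 295 to 318 CPM in the other libraries of the 23-24 h phase. myrf-1 had 114 CPM at 23 h and 60.3 to 66.5 CPM in the others. At 24 h, cyp-42A1 had 183 CPM beside 138 to 141 CPM, and col-146 had 1.18 CPM beside 0.631 to 0.700 CPM. At 32 h, clec-180 and ptr-4 both had 469 CPM, beside 733 to 765 CPM and 713 to 753 CPM in the others. fipr-11 had 0.0467 CPM at 31 h and col-137 had 0.817 CPM at 32 h, with 0 in the other 3 libraries of the phase for each.

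The phase difference differed between the cycles (edgeR interaction, second cycle minus first, adjusted p below 0.05) for 8 named genes. It was positive for col-176 (8.04 ± 1.19, adjusted p = 0.0443), ssp-35 (8.11 ± 0.53, 0.0324) and msd-2 (6.08 ± 0.98, 0.0488). The genes ssp-35 and msd-2 belong to families of sperm proteins. Smaller positive terms were those of blmp-1 (1.45 ± 0.19, 0.0383) and myrf-2 (1.04 ± 0.17, 0.0443). The term was negative for the collagen col-153 (−3.67 ± 0.47, 0.0375), for tbh-1, tyramine beta-hydroxylase (−5.61 ± 0.69, 0.0375), and for col-81 (−9.38 ± 1.42, 0.0443). msd-2 and ssp-35 had 0 CPM at 23 and 24 h, so their first-cycle differences depend on the prior count of the fit.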

How the results depend on the processing

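No paired analysis was possible because replicate numbers here only name the hours of a phase and pair no samples; the cycle is the block of the fit. The counts of 905 higher and 1079 lower genes became 552 and 431 without the cycle block, 496 and 376 with 27-28 h between its neighbours, 197 and 70 with 31-32 h between its neighbours, 1479 and 1666 without the fold minimum, and 531 and 501 at a log2 minimum of 2. Lower genes were 1860 with DESeq2, 1928 with all 16 libraries and 631 with linear time. Leaving out single libraries gave 556 to 854 higher and 488 to 957 lower genes. The 279 interaction calls became 537 with total counts only, 1481 with DESeq2, 424 with limma, 476 without the low count filter and 621 with all 16 libraries, and 0 to 286 with single libraries left out (2510 to 4210 at an unadjusted p below 0.05). Cycle counts were 1412 to 2031 higher and 233 to 822 lower with single libraries left out. Course B counts were 567 and 578 without linear time, and 307 to 947 higher and 352 to 913 lower with single libraries left out. Total counts as scaling moved the median of all genes to −0.14, against −0.03 with TMM, and gave 798 higher and 1254 lower. The 2 bracketed contrasts use 6 libraries each; 1 of 6 furrow collagens and 0 of 9 precuticle genes were called in either.

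Of 1420 values of named genes under alternatives, 1261 had the same call as the reported fit, 141 lost and 12 gained the call, and 6 reversed. These were clec-147 (0.68), perm-4 (1.22) and nspd-10 (0.24) with linear time, and cyb-2.1 (0.059), nspd-10 (2.99) and vit-6 (3.14) with 27-28 h between its neighbours. The cause was not tested; all 5 genes were also called higher at 29-36 h. Among the 1261, 12 values of 6 genes without a call changed sign without gaining one. Without each library in turn 497 higher and 417 lower genes kept their calls. At these depths, levels near 0.1 to 0.2 CPM rest on about 3 counts.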

Other observations

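Further families were grouped by name after their values were seen, and so have no test. They are not all separate from the lists above: the wrt genes are also counted among the hedgehog-related genes, and fipr genes such as fipr-11 among the antimicrobial peptide genes. All 7 tested mam genes, which carry the MAM domain, were higher in the 23-24 h phase, with a median log2 difference of 3.68, and 6 of 8 mltn, 6 of 9 wrt and 5 of 9 cdh (cadherin) genes were higher with none lower. mam-3 had 31.0, 88.1, 31.1 and 71.3 CPM in the 23-24 h phase and 4.83, 2.25, 8.10 and 2.25 CPM in the 27-28 h phase, with the later hour higher in both cycles, and the cadherin gene cdh-12 differed by 4.88 ± 0.27. Of 14 fipr genes 9 were lower and 0 higher, and of 13 P-glycoprotein transporter genes 5 were lower and 1 higher (median log2 0.03), with pgp-14 at −4.31 ± 0.48 and pgp-2 at 1.28 ± 0.20.

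Neighbouring genes were called together more often than the table as a whole. Among protein-coding genes, 180 of 858 higher genes (20.98%) had an adjacent tested protein-coding gene that was also higher, against 11.5% of all tested protein-coding genes. For lower genes the share was 297 of 1062 (28.0%), against 14.1%. Families of similar genes that lie side by side enter these shares, and their part was not tested.

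The hour of the highest library within the first cycle was 23 h for 318 of the higher genes, 24 h for 389 and 25 h for 122. In the second cycle it was 30 h for 100, 31 h for 341, 32 h for 230 and 33 h for 195. For 821 of the 905 (90.7%) the peaks of the cycles lay within 1 h of the same phase, against 59.2% of all genes tested; the contrast itself used these hours. The lower genes had their first-cycle peak mainly at 27 h (402) and 28 h (356), and in the second cycle 684 peaked at 36 h, the last hour sampled.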
